A study of Mus musculus with 12 samples.

Results

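The genes described here are 9 genes of the glucocorticoid response, namely the receptor gene Nr3c1, the ligand-metabolising enzymes Hsd11b1 and Hsd11b2, and the target genes Fkbp5, Tsc22d3, Per1, Sgk1, Zbtb16 and Dusp1. They were taken by name, as the features of the array annotated with 1 of these symbols only. Each of the 9 genes had 1 such feature, so 9 of the 19938 genes tested and 9 of the 35557 features in all are described. The samples were total RNA of duodenal segments from mice of strain 129, measured on Affymetrix arrays in 4 groups of 3 arrays. The groups were Onecut2 knockout at postnatal day 30, wild type at day 30, Onecut2 knockout at day 15 and wild type at day 15, all of them untreated. Each array held the RNA of 5 to 8 mice of mixed sex pooled together, so the spread between arrays is one between pools and not between single mice. Onecut2 encodes a DNA-binding protein with a cut domain and a homeodomain. The labels say only that the gene was ablated, and name no promoter or Cre driver. Values are log2 expression values made by RMA, and a difference of 1 is a 2-fold change.

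Glucocorticoids are steroid hormones of the adrenal cortex, and corticosterone is the main one in mice. The hormone enters the cell and binds the glucocorticoid receptor, which waits in the cytoplasm in a complex with heat shock proteins and immunophilins, moves to the nucleus and switches genes on or off, often through paired hexamers in the DNA called glucocorticoid response elements. In rodents, blood corticosterone rises around weaning, and giving the hormone early brings forward the appearance of sucrase and other enzymes of the adult small intestine. Day 15 lies before weaning and day 30 after it, so the design asks how these genes differ between the suckling and the weaned duodenum and whether ablation of Onecut2 changes that.

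Over all features the arrays had medians between 7.20 and 7.25, and no pair of arrays correlated above 0.9953. Onecut2 itself lay between 8.18 and 8.25 on knockout arrays against 9.50 and 9.63 on wild type arrays at day 30, and between 8.09 and 8.20 on knockout arrays against 9.55 and 9.69 on wild type arrays at day 15. The position of its probes with respect to the ablated sequence was not examined. All 10 epithelial markers checked were measured, and their mean per array lay between 11.81 and 11.97 over the 12 arrays. The segments also carried other tissues. The mean of 10 smooth muscle markers lay between 9.72 and 9.87 at day 30 against 10.13 and 10.50 at day 15, and that of 9 T cell markers between 8.30 and 8.49 at day 30 against 6.62 and 6.99 at day 15. Fewer cells of a type and less RNA per cell cannot be told apart in such bulk samples.

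The response of the 9 genes to age was mixed, and 1 gene stood out in size. Fkbp5 was higher at day 30 than at day 15 in both genotypes, by 3.16-fold in knockout and by 1.59-fold in wild type. Per1 and Tsc22d3 were lower at day 30 in both genotypes. Dusp1 was lower and Hsd11b1 higher at day 30 with a call in wild type only, while Nr3c1, Sgk1, Zbtb16 and Hsd11b2 passed in neither genotype. A gene was called where the limma p adjusted by Benjamini-Hochberg over all 19938 genes was below 0.05. In knockout 3 of the 9 genes were called with age, 1 higher and 2 lower, where 31% of all genes were called (13.8% higher, 17.2% lower). In wild type 5 were called, 2 higher and 3 lower, where 29.3% of all genes were called (12.3% higher, 17% lower). The median log2 fold change of the 9 genes was 0.07 in knockout and -0.26 in wild type, beside 0.026 and 0.022 over all genes. With so many genes called with age and only 9 described, nothing particular to the 9 genes is read from these counts.

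**Figure D1:**
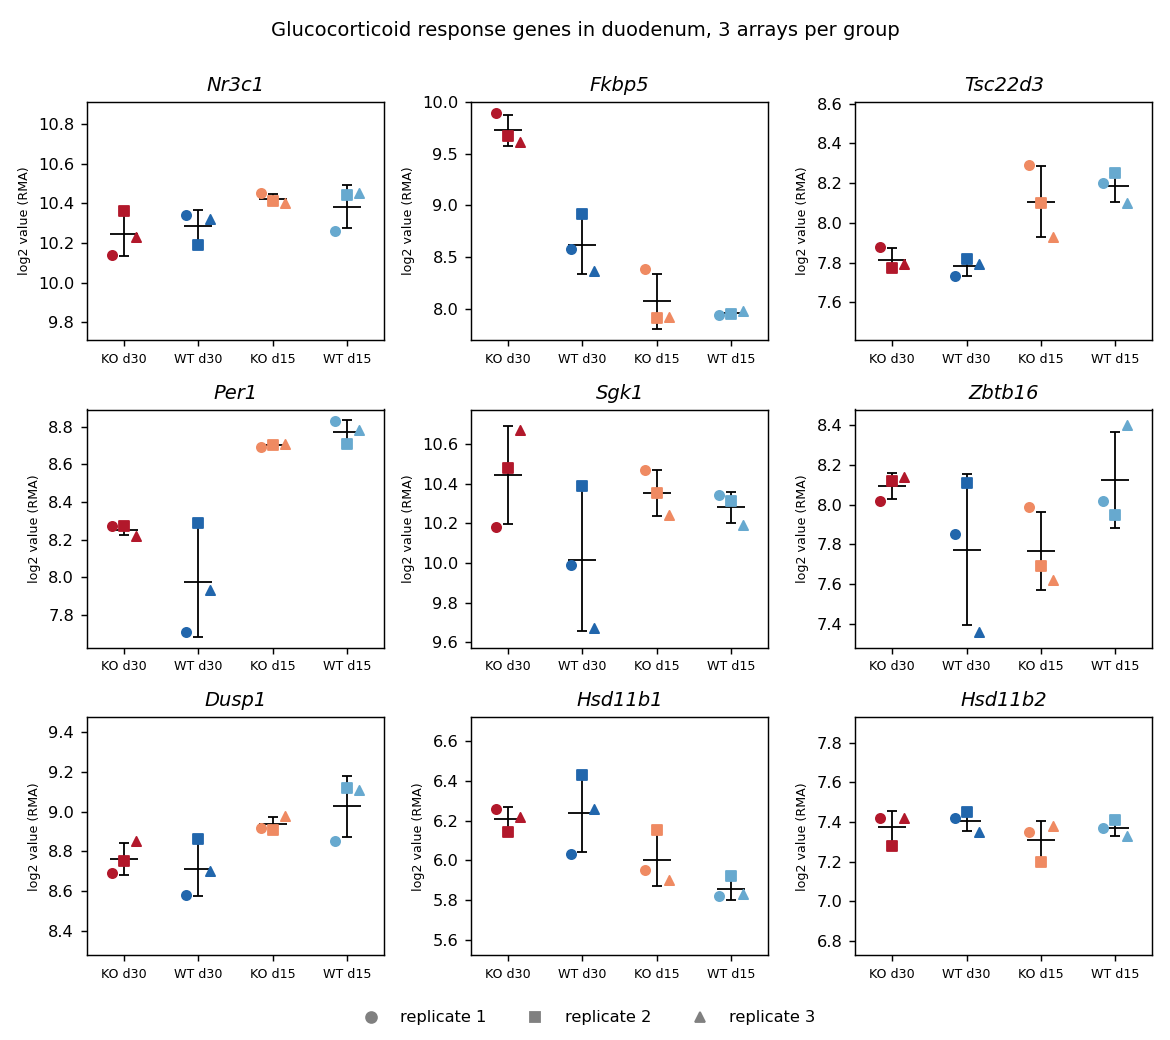
Log2 RMA value (vertical axes, each spanning its own range) of the 9 glucocorticoid response genes on every array, by group (KO, Onecut2 knockout; WT, wild type; d30 and d15, postnatal days). Symbols mark the replicate number, horizontal bars the group mean and whiskers 1 SD over 3 arrays. Fkbp5 is highest in knockout at day 30, where its 3 arrays lie between 9.62 and 9.90, above every other array.

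The receptor gene Nr3c1 passed the test in no comparison of the fit over all 12 arrays. It stood at 10.14, 10.36 and 10.23 on knockout arrays at day 30, at 10.34, 10.19 and 10.32 on wild type arrays at day 30, at 10.45, 10.41 and 10.40 on knockout arrays at day 15 and at 10.26, 10.44 and 10.45 on wild type arrays at day 15. The 3 knockout arrays at day 30 were all below the 3 at day 15, and the wild type groups overlapped. The log2 fold change with age was -0.18 in knockout (SE 0.07, limma adjusted p = 0.08) and -0.10 in wild type (SE 0.07, limma adjusted p = 0.33), with 95% intervals of -0.33 to -0.02 and -0.25 to 0.06. In knockout the gene passed without replicate 2 of day 30 (-0.23, limma adjusted p = 0.031), and in wild type it passed, just below the threshold, with the sex genes as a covariate (-0.20, SE 0.07, limma adjusted p = 0.05 as rounded). Between genotypes the difference was -0.04 at day 30 (95% interval -0.20 to 0.11) and 0.03 at day 15 (-0.12 to 0.19).

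Of the enzymes, Hsd11b1 regenerates active corticosterone from its inert keto form inside cells. Its levels were 6.26, 6.14 and 6.22 in knockout at day 30, 6.03, 6.43 and 6.26 in wild type at day 30, 5.95, 6.15 and 5.90 in knockout at day 15 and 5.82, 5.92 and 5.83 in wild type at day 15. The wild type groups did not overlap and the knockout groups did. Hsd11b1 was 1.30-fold higher at day 30 in wild type (log2 fold change 0.38, SE 0.09, limma adjusted p = 0.0072), while in knockout the log2 fold change was 0.21 (SE 0.09, limma adjusted p = 0.11). The difference between these age effects was -0.18 (95% interval -0.46 to 0.11, limma adjusted p = 0.80). With its mean over the arrays below 7, Hsd11b1 lies among the dim features, where folds are understated.

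Hsd11b2 works in the opposite direction, turning corticosterone into the inert form and thereby shielding the mineralocorticoid receptor. It was the steadiest of the 9 genes, with a range of 0.26 over the 12 arrays. In knockout at day 30 it read 7.42, 7.28 and 7.42, in wild type at day 30 7.42, 7.45 and 7.35, in knockout at day 15 7.35, 7.20 and 7.38, and in wild type at day 15 7.37, 7.41 and 7.33. All 4 groups overlapped. The log2 fold change with age was 0.07 in knockout (95% interval -0.07 to 0.20) and 0.04 in wild type (-0.10 to 0.18), and that between genotypes was -0.03 at day 30 (-0.17 to 0.11) and -0.06 at day 15 (-0.20 to 0.08).

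Among the targets, Fkbp5 encodes an immunophilin that joins the receptor complex, lowers its affinity for hormone and is itself induced by it, closing a short negative feedback loop. Its levels were 9.90, 9.67 and 9.62 in knockout at day 30, 8.58, 8.92 and 8.36 in wild type at day 30, 8.38, 7.91 and 7.92 in knockout at day 15 and 7.94, 7.95 and 7.98 in wild type at day 15. Knockout at day 30 ranked first and lay clear of all other arrays, wild type at day 30 came next, and the day 15 groups overlapped with each other. Knockout replicate 1 of day 15, at 8.38, lay just above the lowest wild type array of day 30. The means were 9.73 ± 0.15 in knockout and 8.62 ± 0.28 in wild type at day 30, and 8.07 ± 0.27 in knockout and 7.96 ± 0.02 in wild type at day 15 (SD, n = 3 each).

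Fkbp5 was higher in knockout than in wild type at day 30 by 2.15-fold (log2 fold change 1.11, SE 0.14, limma adjusted p = 0.0010), where 1.98% of all genes were called and 1.04% were called higher. At day 15 the difference was 0.11 (SE 0.14, 95% interval -0.20 to 0.42, limma adjusted p = 0.82), where 3.83% of all genes were called. The age effect was 1.66 in knockout (SE 0.14, limma adjusted p = 2.2e-06) and 0.67 in wild type (SE 0.14, limma adjusted p = 0.0033). The difference between these age effects was 0.99 (SE 0.20, 95% interval 0.55 to 1.44) and missed the threshold over all genes (limma adjusted p = 0.058), where 0.456% of all genes were called. It passed without knockout replicate 1 of day 15 (1.15, limma adjusted p = 0.014) and without wild type replicate 2 of day 30 (1.15, limma adjusted p = 0.022). It was smaller, and further from the threshold, with the smooth muscle mean (0.74, limma adjusted p = 0.43), the sex genes (0.88, limma adjusted p = 0.39) or the immediate early gene mean (0.91, limma adjusted p = 0.27) as a covariate. Averaged over both ages the genotype effect was 0.61 (SE 0.10, limma adjusted p = 0.0029), where 5.34% of all genes were called. That averaged call ended with the T cell marker mean as a covariate (0.56, SE 0.19, limma adjusted p = 0.39), a fit chosen after seeing the data. For the averaged effect that fit called 116 genes in all, against 1064 without the covariate. No other of the 9 genes was called between genotypes in the fit over all 12 arrays. At day 15 none of them had an unadjusted limma p below 0.05. At day 30 Sgk1 and Per1 did, with unadjusted limma p-values of 0.019 and 0.024, and both failed the adjustment.

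T cell markers lay between 8.35 and 8.49 on knockout arrays and between 8.30 and 8.41 on wild type arrays at day 30. Between genotypes 0 of 9 were called there, where 1.98% of all genes were called. The pancreas acinar mean over 8 markers ran from 12.45 to 13.03 on knockout arrays and from 12.82 to 13.56 on wild type arrays at day 30, with 0 of 8 called. All 8 pancreas markers had values below 0 in knockout against wild type at day 30, with a median log2 fold change of -0.42, and 3 had an unadjusted limma p below 0.05. Of 9 stomach and Brunner gland markers measured 1 was called lower in knockout, Gkn3 (-0.33, SE 0.06, limma adjusted p = 0.015). Of 10 epithelial markers, Fabp1 was called higher (0.31, SE 0.06, limma adjusted p = 0.013) and Krt18 lower (-0.30, SE 0.06, limma adjusted p = 0.028). The difference in Fkbp5 at day 30 was 1.18 with the pancreas acinar mean as a covariate, 1.13 with the stomach and Brunner gland mean, 1.17 with the smooth muscle mean and 1.09 with the T cell marker mean, beside 1.11 without a covariate. The pools also differed in sex genes, with Xist minus the mean of Y-linked genes at 2.57, 1.82 and 3.24 in knockout and at 0.45, 2.43 and 0.67 in wild type at day 30. With that measure as a covariate the difference in Fkbp5 was 1.03 (SE 0.17, limma adjusted p = 0.015). Over all 26 alternative settings it lay between 0.98 and 1.26 and was called in each.

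**Figure D2:**
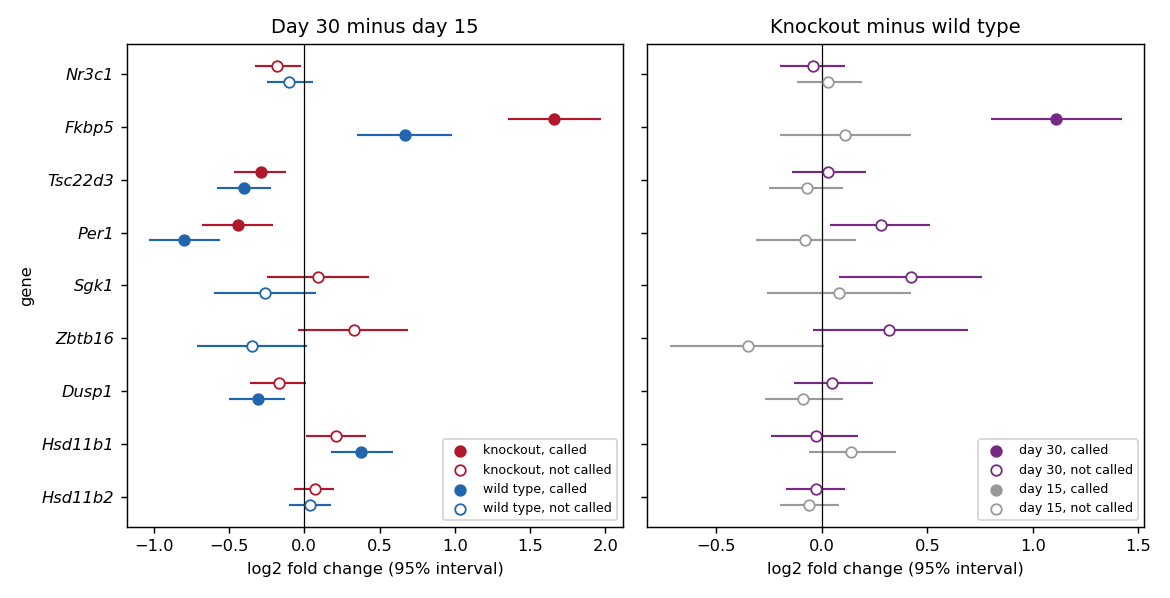
Log2 fold changes (horizontal axes) of the 9 genes with their 95% intervals, unadjusted, from the fit over all 12 arrays. The left panel gives day 30 minus day 15 in knockout and wild type, the right panel knockout minus wild type at day 30 and day 15, and filled points are called over all genes. Fkbp5 is the farthest from 0 in knockout with age (1.66) and between genotypes at day 30 (1.11).

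Per1, a clock gene that corticosterone also induces acutely, was lower at day 30 in both genotypes, where Fkbp5 was higher. It stood at 8.27, 8.27 and 8.22 in knockout at day 30, at 7.71, 8.29 and 7.93 in wild type at day 30, at 8.69, 8.70 and 8.71 in knockout at day 15 and at 8.83, 8.71 and 8.78 in wild type at day 15. Day 30 arrays were all below day 15 arrays in both genotypes. The log2 fold change was -0.44 in knockout (SE 0.11, limma adjusted p = 0.0069) and -0.80 in wild type (SE 0.11, limma adjusted p = 9.3e-05), and the difference between these age effects did not pass (0.35, SE 0.15, limma adjusted p = 0.52). Without wild type replicate 2 of day 30, the highest of its group, Per1 was called higher in knockout at day 30 (0.44, limma adjusted p = 0.011), against 0.28 with it (SE 0.11, limma adjusted p = 0.32). That array had Xist minus the mean of Y-linked genes at 2.43, against 0.45 and 0.67 on the wild type arrays kept. The knockout arrays of day 30 had 2.57, 1.82 and 3.24. The part of pool sex in the call without that array was not tested.

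Tsc22d3, whose protein GILZ is a leucine zipper factor that restrains inflammatory signalling, was lower at day 30 in both genotypes. It read 7.88, 7.77 and 7.79 in knockout at day 30, 7.73, 7.82 and 7.79 in wild type at day 30, 8.29, 8.10 and 7.93 in knockout at day 15 and 8.20, 8.25 and 8.10 in wild type at day 15. The day 30 arrays were below the day 15 arrays in each genotype. The log2 fold change was -0.29 in knockout (SE 0.08, limma adjusted p = 0.014) and -0.40 in wild type (SE 0.08, limma adjusted p = 0.0021). The knockout call ended without replicate 1 of day 15 (-0.20, limma adjusted p = 0.058).

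Dusp1 encodes a phosphatase that switches off MAP kinases. It read 8.69, 8.75 and 8.85 in knockout at day 30, 8.58, 8.86 and 8.70 in wild type at day 30, 8.92, 8.91 and 8.98 in knockout at day 15 and 8.85, 9.12 and 9.11 in wild type at day 15. The wild type groups overlapped by 1 array, the knockout groups did not. The wild type fall was called (-0.31, SE 0.09, limma adjusted p = 0.014) and the knockout value was not (-0.17, SE 0.09, limma adjusted p = 0.16), and the difference between them was 0.14 (limma adjusted p = 0.84). The wild type call ended without replicate 2 or 3 of day 15 (-0.27 each, limma adjusted p = 0.064 each) and without replicate 1 of day 30 (-0.25, limma adjusted p = 0.067).

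Smooth muscle, fibroblast and endothelial markers moved with age in the same direction as Per1, Tsc22d3 and Dusp1. All 10 smooth muscle markers and all 7 fibroblast markers were lower at day 30 in both genotypes, and so were 5 of 6 endothelial markers. Over all genes 17.2% were called lower with age in knockout and 17% in wild type, and 13.8% and 12.3% were called higher. The log2 of the summed smooth muscle level ran from 13.73 to 13.77 in knockout and from 13.70 to 13.87 in wild type at day 30, and from 14.23 to 14.39 in knockout and from 14.49 to 14.59 in wild type at day 15. T cell and B cell markers moved with Fkbp5 and Hsd11b1, with 8 of 9 T cell markers higher in both genotypes. The log2 of their sum ran from 11.95 to 12.14 in knockout and from 11.87 to 12.03 in wild type at day 30, and from 10.09 to 10.28 in knockout and from 9.86 to 9.93 in wild type at day 15. Of 7 B and plasma cell markers measured, 7 were higher in knockout and 6 in wild type, with median log2 fold changes of 1.57 and 1.74 and up to 4.50 and 4.98, both for Jchain, which joins immunoglobulins. The log2 of their sum ran from 12.84 to 13.07 in knockout and from 13.16 to 13.36 in wild type at day 30, and from 9.56 to 10.02 in knockout and from 9.43 to 9.81 in wild type at day 15. Epithelial markers moved both ways, with 3 higher and 2 lower of 10 in knockout and 5 higher and 2 lower in wild type. Krt20 was higher (0.75 in knockout and 0.73 in wild type) and Krt18 lower (-0.75 and -0.42). In a fit with the smooth muscle mean added as a covariate, a measure that separates the ages on every array, the calls of Per1, Tsc22d3, Dusp1 and Hsd11b1 ended, as did that of Fkbp5 in wild type (1.67, SE 0.60, limma adjusted p = 0.37). That fit called 200 genes in all with age in knockout and 39 in wild type, against 6178 and 5849 without the covariate. Most calls of any gene thus ended in it. Tsc22d3 had -0.40 in knockout (SE 0.29, limma adjusted p = 0.57) and -0.55 in wild type (SE 0.38, limma adjusted p = 0.63) there, and Hsd11b1 had 0.38 in wild type (SE 0.44, limma adjusted p = 0.78), values of about the same size as without the covariate or larger, with wider errors. Per1 had 0.11 in knockout (SE 0.34, limma adjusted p = 0.91) and -0.05 in wild type (SE 0.45, limma adjusted p = 0.98), and Dusp1 had 0.29 in wild type (SE 0.36, limma adjusted p = 0.80). With a covariate that follows age and errors this wide, the fit cannot separate muscle from age for any of these genes. The Fkbp5 call in knockout remained there, at 2.40 (SE 0.45, limma adjusted p = 0.03). The part of the fibroblast, endothelial, T cell, B cell and epithelial markers in the age effects was not tested.

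Sgk1 encodes a kinase that both corticosteroid receptors induce and that raises sodium transport, and Zbtb16 encodes a zinc finger repressor that is also the master factor of innate-like lymphocytes. Sgk1 stood at 10.18, 10.48 and 10.67 in knockout at day 30, at 9.99, 10.39 and 9.67 in wild type at day 30, at 10.47, 10.35 and 10.24 in knockout at day 15 and at 10.34, 10.31 and 10.19 in wild type at day 15. Its groups overlapped throughout, and the widest spread was within wild type at day 30. The age effect was 0.09 in knockout (95% interval -0.25 to 0.43) and -0.26 in wild type (-0.60 to 0.08), and the genotype difference was 0.42 at day 30 (0.08 to 0.76, limma adjusted p = 0.28). Without wild type replicate 2 of day 30, Sgk1 was called lower with age in wild type (-0.45, limma adjusted p = 0.029), and without replicate 3, the lowest of that group, the value was -0.09 (limma adjusted p = 0.71).

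Zbtb16 read 8.02, 8.12 and 8.14 in knockout at day 30, 7.85, 8.11 and 7.36 in wild type at day 30, 7.99, 7.69 and 7.62 in knockout at day 15 and 8.02, 7.95 and 8.40 in wild type at day 15. All 3 knockout arrays at day 30 were above those at day 15, while the wild type groups overlapped. The age effect was 0.33 in knockout (SE 0.17, limma adjusted p = 0.17) and -0.35 in wild type (SE 0.17, limma adjusted p = 0.15). Their difference of 0.67 (95% interval 0.16 to 1.19) failed the adjustment (limma adjusted p = 0.37). The wild type value passed without replicate 2 of day 30 (-0.52, limma adjusted p = 0.034). It was -0.14 (limma adjusted p = 0.51) without replicate 3 of day 30 and -0.21 (limma adjusted p = 0.45) without replicate 3 of day 15.

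Sequences upstream of the start were compared for the members with an entry in the RefSeq promoter table of build GRCm38.p6, which held 14 windows for 6 of the 9 genes. It gave 6 windows for Sgk1, 3 for Tsc22d3, 2 for Per1 and 1 each for Fkbp5, Dusp1 and Hsd11b1, and the genes with no entry were Nr3c1, Zbtb16 and Hsd11b2. The 250 bases before each start were searched on both strands for the palindromic glucocorticoid response element of 13 positions, its hexamer half-site TGTTCT, the clock factor E-box CACGTG, the cyclic AMP response element TGACGTCA and the TATA box TATAAA. The half-site can overlap the response element. The response element was found in 1 of the 14 windows, before the fifth Sgk1 start, beside 0.387% of all 32851 windows. That match lies at chr10:21993702-21993714, with 951 bases between it and the sixth listed Sgk1 start. The E-box was found in 4 of the 14 windows, beside 6.02% of all windows. These were the windows of Fkbp5, which was higher at day 30, of Per1 and Dusp1, which were lower at day 30 in 1 or both genotypes, and of the fifth Sgk1 start. The half-site was in 4 windows (16.1% of all windows), the TATA box in 2 (12.4%) and the cyclic AMP response element in 1, that of Dusp1 (1.55%). The 4 windows that hold an E-box are shown, since they include the members that moved in opposite directions with age, and capitals mark every motif found.
Fkbp5, chr17:28486150-28486399, minus strand: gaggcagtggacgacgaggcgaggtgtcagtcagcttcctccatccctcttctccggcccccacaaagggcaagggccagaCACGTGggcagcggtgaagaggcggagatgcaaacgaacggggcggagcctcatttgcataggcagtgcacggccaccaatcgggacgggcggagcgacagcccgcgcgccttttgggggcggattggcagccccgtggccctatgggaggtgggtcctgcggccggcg
Per1, first start, chr11:69098699-69098948, plus strand: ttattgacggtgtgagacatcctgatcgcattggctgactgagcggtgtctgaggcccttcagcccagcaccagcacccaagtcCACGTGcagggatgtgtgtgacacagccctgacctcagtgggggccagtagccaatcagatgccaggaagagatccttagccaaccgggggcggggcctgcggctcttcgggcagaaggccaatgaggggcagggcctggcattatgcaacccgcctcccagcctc
Dusp1, chr17:26508473-26508722, minus strand: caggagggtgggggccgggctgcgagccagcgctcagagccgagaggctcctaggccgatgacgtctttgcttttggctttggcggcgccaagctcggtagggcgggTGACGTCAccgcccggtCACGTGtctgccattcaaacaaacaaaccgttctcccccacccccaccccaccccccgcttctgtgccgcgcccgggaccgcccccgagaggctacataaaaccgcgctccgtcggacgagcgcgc
Sgk1, start 5, chr10:21993640-21993889, plus strand: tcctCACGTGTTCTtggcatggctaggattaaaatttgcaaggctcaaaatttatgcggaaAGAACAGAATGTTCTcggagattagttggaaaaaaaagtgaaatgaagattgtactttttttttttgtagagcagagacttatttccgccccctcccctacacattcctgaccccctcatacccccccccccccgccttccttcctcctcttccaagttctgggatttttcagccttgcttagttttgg
The E-box begins 169 bases before the start in Fkbp5, 166 in Per1, 126 in Dusp1 and 246 in the Sgk1 window. In Dusp1 the cyclic AMP response element begins 143 bases before the start, with 9 bases between it and the E-box. The Sgk1 window holds the palindrome GAACAGAATGTTC beginning 188 bases before that start, with a half-site on each strand overlapping it and another half-site 242 bases before the start. Sgk1 was not called in any comparison in the fit over all 12 arrays, and the genes called with age, Fkbp5, Per1, Tsc22d3, Dusp1 and Hsd11b1, had no match to the full response element in these windows. A match is only a run of letters, and elements outside these windows were not searched.

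Within groups, 1 pool ran high over nearly all of the 9 genes at once. Wild type replicate 2 of day 30 was the highest of its 3 arrays for 8 of the 9 genes, all but Nr3c1, beside 29.5% of all genes for which it was highest. It lay above its group mean by 0.38 for Sgk1, 0.34 for Zbtb16, 0.32 for Per1 and 0.30 for Fkbp5. The same array had the highest pancreas acinar mean of its group (13.56 against 12.82 and 13.09) and the highest stomach and Brunner gland mean (11.07 against 10.45 and 10.34), and the part of these tissues in the deviations was not tested. Knockout replicate 1 of day 15 was highest for 5 of the 9 genes, beside 39.6% of all genes. Knockout replicate 1 of day 30 was highest for 5 as well, beside 30.1%. Nothing particular to the 9 genes is read from either count. Knockout replicate 1 of day 15 lay above its group mean by 0.31 for Fkbp5, 0.22 for Zbtb16 and 0.19 for Tsc22d3. Deviations from the group means correlated at Pearson r = 0.72 between Fkbp5 and Zbtb16 and between Per1 and Hsd11b1, at 0.66 between Sgk1 and Zbtb16 and at 0.62 between Fkbp5 and Tsc22d3. They correlated at -0.54 between Nr3c1 and Per1. These values are descriptions over 12 arrays taken as deviations from 4 group means, with pools in common between all genes. With the mean of 11 immediate early genes the within-group correlation was 0.45 for Dusp1, 0.14 for Per1 and 0.01 for Sgk1. With the mean of the clock genes other than Per1 it was 0.72 for Tsc22d3, 0.55 for Fkbp5, 0.24 for Per1 and 0.15 for Hsd11b2. For the others it was 0.04 (Hsd11b1), -0.05 (Zbtb16), -0.08 (Sgk1), -0.38 (Nr3c1) and -0.45 (Dusp1). The hour of collection is not in the labels, and its part in these deviations was not tested.

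**Figure D3:**
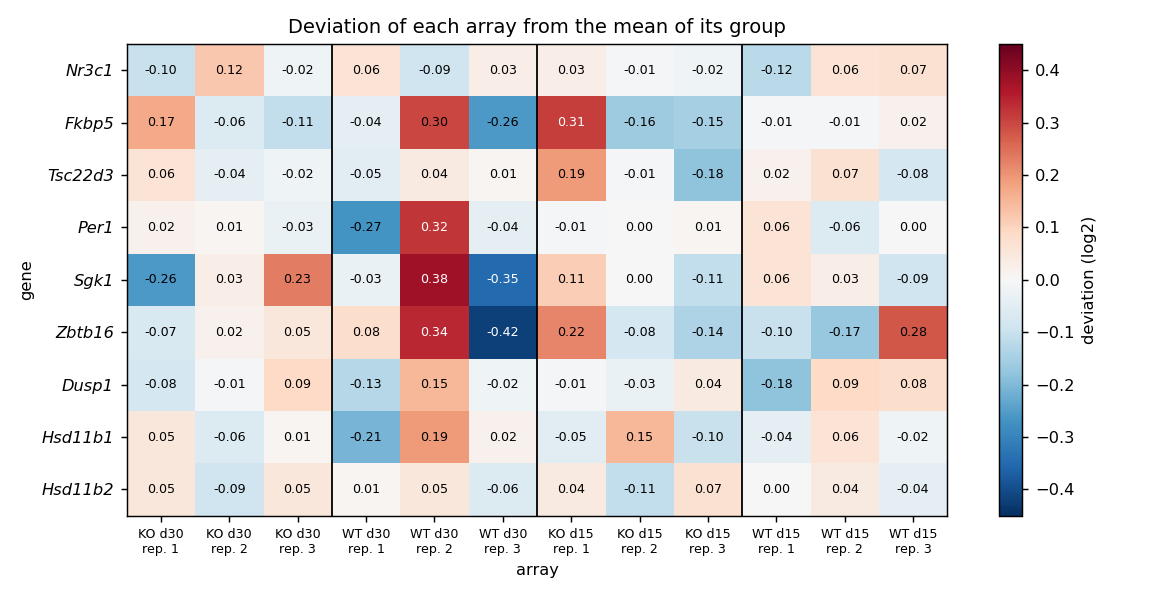
Deviation of each array (columns) from the mean of its own group in log2 units, for the 9 genes (rows), printed in each cell and coloured red above and blue below the mean. Vertical lines separate the groups, which are named as in the plot of values by group. Wild type replicate 2 of day 30 is above its group mean for 8 of 9 genes.

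Other parts of the pathway were read from lists of genes. Of 12 receptor chaperones and coregulators listed, 9 were measured. In knockout with age 1 was higher, the co-chaperone gene Fkbp4 (0.29, SE 0.06, limma adjusted p = 0.0017), and 1 lower, the chaperone gene Hspa8 (-0.25, SE 0.06, limma adjusted p = 0.0035). In wild type 0 were higher and Hspa8 was lower (-0.24, SE 0.06, limma adjusted p = 0.0049), with Fkbp4 at 0.06. Of all genes, 31% were called with age in knockout and 29.3% in wild type. Fkbp4 competes with Fkbp5 for the receptor complex. Between genotypes limma called 0 of the 9 at day 30, where 2 had an unadjusted p below 0.05, and 0 at day 15. Of all genes, 1.98% were called at day 30 and 3.83% at day 15.

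The mineralocorticoid receptor gene Nr3c2, whose product binds corticosterone as well as aldosterone, was higher at day 30, by 3.03-fold in knockout and by 2.98-fold in wild type. It stood at 10.33, 10.23 and 10.08 in knockout at day 30, at 10.00, 10.29 and 10.24 in wild type at day 30, at 8.77, 8.48 and 8.59 in knockout at day 15 and at 8.57, 8.67 and 8.56 in wild type at day 15. The days did not overlap and the genotypes did. The log2 fold change was 1.60 in knockout (SE 0.09, limma adjusted p = 8.7e-08) and 1.58 in wild type (SE 0.09, limma adjusted p = 9.6e-08). The mineralocorticoid list, with 9 of 10 genes measured and Sgk1 and Tsc22d3 among them, had 2 higher and 1 lower in knockout and 3 higher and 1 lower in wild type. Over all genes 31% were called with age in knockout and 29.3% in wild type. The sodium pump subunit gene Atp1b1 was higher in both (0.59 and 0.46, SE 0.05 each), the sodium channel gene Scnn1a in wild type (0.67, SE 0.14, limma adjusted p = 0.0021; 0.25 in knockout), and Tsc22d3 was the lower one.

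Genes that make, handle or export the ligand showed 0 higher and 2 lower of 9 measured in knockout with age, and 2 higher and 2 lower in wild type. The shares of all genes called with age were 31% in knockout and 29.3% in wild type. H6pd, which supplies Hsd11b1 with NADPH, was lower at day 30 while Hsd11b1 was not. It stood at 8.58, 8.30 and 8.24 in knockout at day 30, at 8.34, 8.42 and 8.27 in wild type at day 30, at 9.29, 9.48 and 9.47 in knockout at day 15 and at 9.09, 9.27 and 9.22 in wild type at day 15. The days did not overlap, and the log2 fold change was -1.04 in knockout (SE 0.09, limma adjusted p = 2.1e-06) and -0.85 in wild type (SE 0.09, limma adjusted p = 1.2e-05). Nr0b2, a nuclear receptor without a DNA-binding domain that opposes Nr5a2, was lower as well (-0.86 in knockout and -0.75 in wild type, SE 0.08 each). Cyp11b1, the last step of corticosterone synthesis, had a small rise in wild type (0.33, SE 0.11, limma adjusted p = 0.035) that ended without replicate 2 or 3 of day 15 or replicate 1 or 3 of day 30, with values of 0.24 to 0.35 there. In knockout the value was 0.09. Cyp11b1 lies among the dim features as well, with group means between 5.24 and 5.72.

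Abcb1a encodes the P-glycoprotein pump, which exports corticosteroids among many compounds. It stood at 9.73, 9.66 and 9.68 in knockout at day 30, at 10.32, 10.57 and 10.72 in wild type at day 30, at 10.30, 9.85 and 9.73 in knockout at day 15 and at 9.87, 9.59 and 9.54 in wild type at day 15. At day 30 all knockout arrays were below all wild type arrays, and the log2 fold change was -0.84 with an SE of 0.14 (limma adjusted p = 0.0063). That call ended with the pancreas acinar mean as a covariate (-0.80, SE 0.17, limma adjusted p = 0.06). The gene rose with age in wild type (0.87, SE 0.14, limma adjusted p = 3.6e-04) and had -0.27 in knockout (SE 0.14, limma adjusted p = 0.17).

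**Figure D4:**
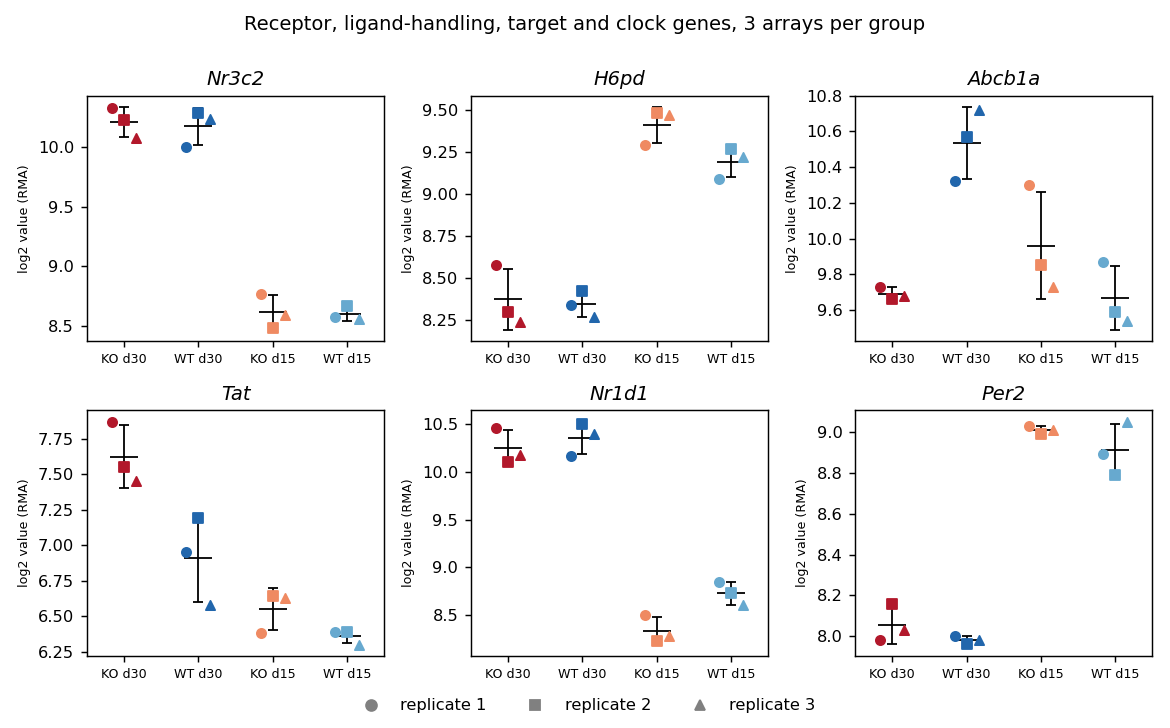
Log2 RMA value (vertical axes, each spanning its own range) on every array, by group, of the mineralocorticoid receptor gene Nr3c2, the NADPH supplier gene H6pd, the efflux pump gene Abcb1a, the glucocorticoid target Tat and the clock genes Nr1d1 and Per2. Symbols mark the replicate number, horizontal bars the group mean and whiskers 1 SD over 3 arrays, with groups named as in the plot of the 9 genes. Nr3c2 and Nr1d1 are higher and H6pd and Per2 lower at day 30 in both genotypes, while Abcb1a at day 30 is lower on all knockout arrays than on all wild type arrays.

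Further genes that glucocorticoids are known to induce moved both ways with age. Of 24 listed, 23 were measured. In knockout 15 were called with age, 5 higher and 10 lower, with a median log2 fold change of -0.17, where 31% of all genes were called (13.8% higher, 17.2% lower) and their median was 0.026. In wild type 20 were called, 6 higher and 14 lower, with a median of -0.36, where 29.3% of all genes were called (12.3% higher, 17% lower) and their median was 0.022. Nothing particular to the list is read from these counts. The falls were largest, in both genotypes, for the metallothionein gene Mt2 (-1.72 in knockout, -2.17 in wild type, SE 0.21 each), the cell cycle inhibitor gene Cdkn1c (-1.78 and -1.76, SE 0.08 each) and Pdk4, a brake on glucose oxidation (-1.44 and -1.67, SE 0.17 each). Mt1 (-0.71 and -1.11, SE 0.08 each) and the EGF receptor inhibitor gene Errfi1 (-0.55 and -0.88, SE 0.06 each) were lower too. The 5 genes higher in knockout were also higher in wild type: the NF-kappaB inhibitor gene Nfkbia (0.70 in knockout, 0.63 in wild type), Sesn1 (0.48 and 0.63), Cebpd (0.60 and 0.24), Zfp36 (0.22 and 0.39) and Tat (1.08 and 0.55). The largest wild type value of the list, 0.74, belonged to a gene other than these 5. The Zfp36 call in knockout and the Cebpd call in wild type each ended with single arrays left out, in 7 and in 5 of 12 cases, with limma adjusted p-values of up to 0.17 and 0.16.

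Tat encodes tyrosine aminotransferase, the classic glucocorticoid-induced enzyme of the liver, and shared the order of groups seen for Fkbp5. It stood at 7.87, 7.55 and 7.45 in knockout at day 30, at 6.95, 7.19 and 6.58 in wild type at day 30, at 6.38, 6.64 and 6.63 in knockout at day 15 and at 6.39, 6.39 and 6.30 in wild type at day 15. Knockout arrays at day 30 lay above all others, and wild type at day 30 overlapped with knockout at day 15. With its mean over the arrays below 7, Tat lies among the dim features, with group means between 6.36 and 7.63. The genotype difference was 0.72 at day 30 (SE 0.14, limma adjusted p = 0.018) and 0.19 at day 15 (limma adjusted p = 0.63), and the difference between the age effects did not pass (0.54, SE 0.20, limma adjusted p = 0.42). The day 30 call ended without knockout replicate 1 (0.60, limma adjusted p = 0.092), wild type replicate 1 (0.74, limma adjusted p = 0.051) or wild type replicate 3 (0.56, limma adjusted p = 0.066). Unlike that of Fkbp5, it also ended with 6 arrays only (0.72, limma adjusted p = 0.088) and with the sex genes as a covariate (0.61, limma adjusted p = 0.16). The same held with the pancreas acinar mean (0.71, limma adjusted p = 0.11) and the T cell marker mean (0.60, limma adjusted p = 0.07). Besides Tat, Mertk was called higher in knockout at day 30 (0.30, SE 0.06, limma adjusted p = 0.015), and Klf9 (-0.36, SE 0.08, limma adjusted p = 0.020) and Angptl4 (-0.60, SE 0.13, limma adjusted p = 0.020) were called lower at day 15. Each of these 3 calls ended with single arrays left out, in 4 of 12 cases for Mertk, 5 for Klf9 and 4 for Angptl4, with limma adjusted p-values of up to 0.081, 0.094 and 0.099. The Mertk call also ended with the sex genes as a covariate (0.30, limma adjusted p = 0.10) and with 6 arrays only (0.30, limma adjusted p = 0.067). With the T cell marker mean it ended too (limma adjusted p = 0.065), as did those of Klf9 (0.77) and Angptl4 (0.48). At day 15 the fit with that mean called 34 genes in all, against 764 without it.

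**Figure D5:**
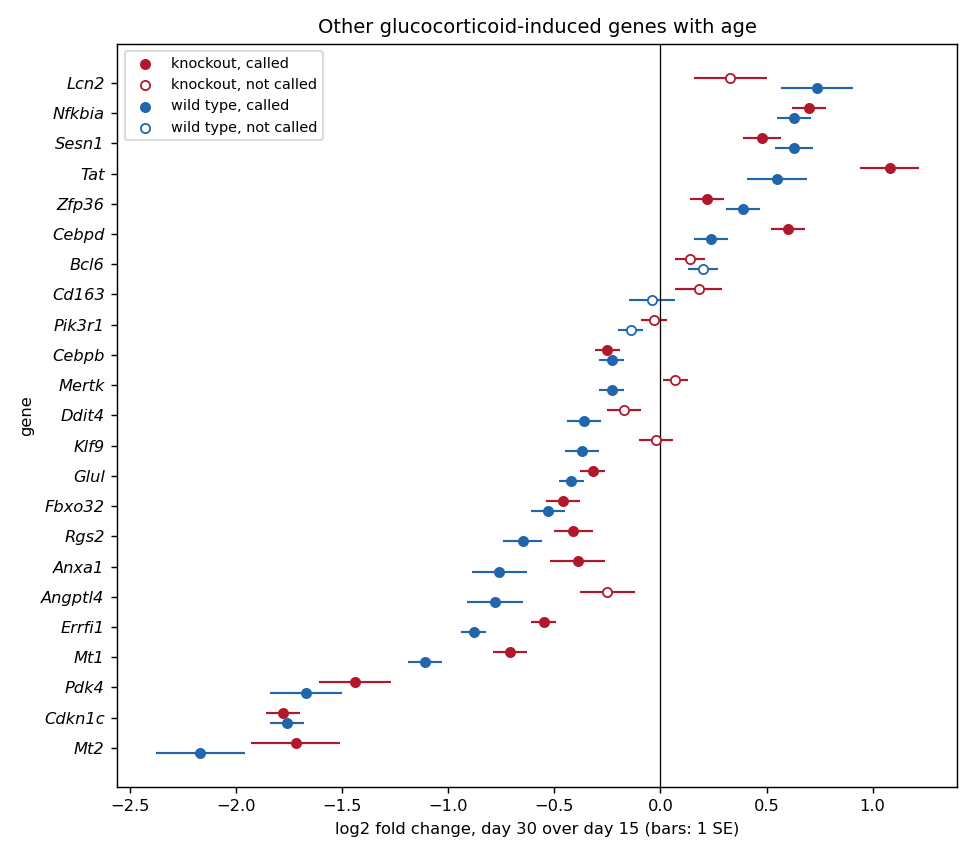
Log2 fold change of day 30 over day 15 (horizontal axis, bars 1 SE) of the 23 measured genes of the list of other glucocorticoid-induced genes, in knockout and wild type, ordered by the wild type value. Filled points are called over all genes. Most points lie below 0, with Mt2, Cdkn1c and Pdk4 lowest.

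Clock and immediate early genes were set beside Per1, Sgk1 and Dusp1, which belong to those programmes as well. Of 14 clock genes measured besides Per1, 8 were called with age in knockout, 4 higher and 4 lower, and 9 in wild type, 4 higher and 5 lower, beside the 31% and 29.3% of all genes called. Per2 fell with Per1 (-0.95 in knockout and -0.93 in wild type, SE 0.07 each), and Bhlhe40, a repressor of the clock, fell by 1.12 in knockout and by 0.76 in wild type. Nr1d1, the repressor that runs in antiphase to the activators of the clock, rose by 1.91 in knockout and by 1.63 in wild type (SE 0.11 each), and Bhlhe41 by 0.66 and 0.75. Cry1 was the 1 clock gene called between genotypes at day 15 (0.33, SE 0.07, limma adjusted p = 0.019), where 3.83% of all genes were called. It had -0.02 at day 30, and its call ended in 5 of the 12 fits that left out 1 array. Of the 14, 8 had an unadjusted limma p below 0.05 at day 15 and 3 at day 30. For the averaged genotype effect 2 were called, both lower, where 5.34% of all genes were called. The hour at which tissue was taken is not given in the labels, so clock phase cannot be told apart from age or genotype here. Of 11 immediate early genes measured, 5 were called with age in knockout, 3 higher and 2 lower, and 4 in wild type, 3 higher and 1 lower, beside the same shares of all genes. Fos rose by 0.55 in knockout and by 0.79 in wild type (SE 0.09 each), and Junb by 0.45 and 0.42 (SE 0.06 each), while Jun fell by 0.37 in knockout and had -0.08 in wild type. Klf4, a zinc finger factor of differentiated epithelium, rose by 0.36 in knockout and by 0.82 in wild type (SE 0.08 each). Egr1 fell by 0.27 in knockout (SE 0.09, limma adjusted p = 0.041) and had -0.03 in wild type, and Nr4a1 fell by 0.27 in wild type (SE 0.09, limma adjusted p = 0.033) and had -0.22 in knockout. Between genotypes Klf4 was the 1 immediate early gene called, higher in knockout at day 15 (0.47, SE 0.08, limma adjusted p = 0.0075) with 0.02 at day 30. That call was kept in all 12 fits that left out 1 array, with values of 0.39 to 0.54. It ended with 5 covariates, among them the T cell marker mean (0.32, limma adjusted p = 0.81), with which 34 genes in all were called against 764, and the immediate early gene mean (0.29, limma adjusted p = 0.38), which holds Klf4 itself. Its averaged genotype effect (0.25, SE 0.06, limma adjusted p = 0.032) was no longer called in 9 of the 12 fits that left out 1 array. With the immediate early gene mean as a covariate, the age calls of Tsc22d3 ended in knockout (-0.27, limma adjusted p = 0.051) and wild type (-0.33, limma adjusted p = 0.14), as did that of Hsd11b1 in wild type (0.25, limma adjusted p = 0.34).

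Genes with the pattern most like each member were those with the highest Pearson correlation over the 12 arrays, among all genes but predicted loci. For Fkbp5 they were Agpat4 (r = 0.990), Slc13a2 (0.982) and Sec61a1 (0.975). For Per1 they were Rpl10 (0.988), Kank1 (0.970) and Tfcp2 (0.964). The genes nearest to Tsc22d3 were Gli1 (0.958), Flt1 (0.958) and Tbc1d17 (0.941), and those nearest to Dusp1 were Mgp (0.953), Kctd12b (0.950) and Anxa1 (0.949). Nr3c1 had Ppil4 (0.940) and Hsd11b1 had Isy1 (0.945) as its nearest gene, and the values were lower for Hsd11b2 (Zgrf1, 0.902), Zbtb16 (Notch4, 0.890) and Sgk1 (Syne3, 0.865). The arrays fall into groups that differ by age, and with so many genes high values arise readily, so these are descriptions.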

How the data were processed

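Per the submitters' processing notes, the authors used Affymetrix Expression Console (version 1.1) and its RMA method for the deposited log2 values. RMA subtracts background, equalises the distributions of the arrays and gives 1 value per feature. That the logarithm has base 2 was inferred from RMA and the range of the values. The sources used here give no genome build for the annotation. RNA was extracted with Trizol and 5.5 micrograms were labelled, per the labels. Such scaling removes changes shared by most genes, and the number of arrays limits the precision. Replicates are separate pools of mice.

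Of 35557 features, 21789 had exactly 1 gene symbol. The feature with the highest mean was kept per gene, which left 19938 genes. All 12 arrays entered 1 limma fit of 4 group means (limma 3.58.1, R 4.3.3, eBayes defaults, 8 residual degrees of freedom). The Benjamini-Hochberg adjustment ran over all genes, separately for each of 6 comparisons. The fit was tested on simulated data. The members and gene lists were chosen with earlier results of these data known. Named genes are the 9 members, Onecut2, up to 4 list members with the smallest p among those called in a comparison, those behind a count of 5 or fewer, and the 3 genes most correlated with each member. A gene named for 1 genotype is given with its value in the other.

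Replicate numbers were not used to pair the arrays in the main fit, and the labels do not say whether they mark a shared batch. Of 18 pairs with the same number, 7 had deviations that correlated above 0.1, with a range of -0.25 to 0.36. Pairs from different groups with unlike numbers ranged from -0.36 to 0.37. Alternatives were other eBayes settings, a filter on genes with a mean below 7, every feature tested separately, a replicate block, 6 arrays only, array weights, median centring, marker means or sex genes as covariates, and leaving out each array.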

Additional observations from a re-analysis of the deposited data

Results flagged for a closer look

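Of 177 genes measured over all lists, the 9 members included, 3 had age effects that differed between knockout and wild type by limma's test of that difference, where 0.456% of all genes were called, and none of the 9 glucocorticoid response genes did. S100b, a glial marker, differed by 1.64 (SE 0.16, limma adjusted p = 4.7e-04), with 6.16 in knockout and 6.21 in wild type at day 30, against 6.36 in knockout and 8.06 in wild type at day 15. This call was kept in all 12 fits that left out 1 array, with values of 1.55 to 1.77. S100b lies among the dim features, with its mean over the arrays below 7. The 6 enteric neuron and glia markers measured did not move together between genotypes at day 15. Of them 1 was called higher in knockout and 1, S100b, lower, where 3.83% of all genes were called. Their log2 fold changes ran from -1.70 to 1.15, with a median of -0.10. Abcb1a, the efflux pump gene, differed by -1.14 (SE 0.20, limma adjusted p = 0.025). That call ended in 8 of the 12 fits that left out 1 array, with values of -1.25 to -0.97 and limma adjusted p-values of up to 0.085. Dab2, an endocytic adaptor gene of the suckling enterocyte, differed by -0.94 (SE 0.17, limma adjusted p = 0.034), and this call ended in 7 of the 12 such fits, with values of -1.04 to -0.80 and limma adjusted p-values of up to 0.10.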

How the results depend on the processing

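The higher Fkbp5 in knockout at day 30 and the absence of calls between genotypes at day 15 held under all 26 alternatives. Of 9 members, the number called with age was 2 to 4 in knockout and 4 to 7 in wild type when 1 array was left out, 0 to 1 for the difference between age effects and 1 to 2 between genotypes at day 30, and the averaged genotype effect gave 1 throughout. With the smooth muscle mean added to the fit it was 1 in knockout and 0 in wild type, in fits that called only 200 and 39 genes in all, and Per1 in knockout (0.11) and Dusp1 (0.29), Klf9 (0.17), Mertk (0.16) and Cyp11b1 (-0.80) in wild type changed sign with no call. With the immediate early gene mean the wild type number was 3. For the difference between age effects it was 1, Fkbp5, with an intensity trend (limma adjusted p = 0.022), without dim genes (0.038) and with array weights (0.029). For the averaged genotype effect it was 2 with the stomach and Brunner gland mean, where Sgk1 was added, and 0 with the T cell marker mean. With the sex genes the Dusp1 call in wild type ended (-0.30, limma adjusted p = 0.056). With the stomach and Brunner gland mean Sgk1 (-0.33, limma adjusted p = 0.044) and Zbtb16 (-0.41, limma adjusted p = 0.038) passed with age in wild type, and with 6 arrays only Zbtb16 passed in knockout (0.33, limma adjusted p = 0.035). Nr3c1 in knockout passed with an intensity trend, without dim genes and with array weights (limma adjusted p = 0.045, 0.048 and 0.037). Values that were not called in either fit were not compared for sign. The replicate block changed no member's call (3, 5, 0, 0, 1 and 1 called) and ended that of Cyp11b1 in wild type (0.33, limma adjusted p = 0.057). Hsd11b1 was not tested without dim genes. The marker means other than smooth muscle and immediate early genes were chosen after seeing the data, and the T cell mean was used only between genotypes. Over all genes, the count with age ran from 200 to 6733 in knockout, against 6178, and from 39 to 7044 in wild type, against 5849, with the lowest under the smooth muscle mean. It ran from 27 (sex genes as covariate) to 177 (intensity trend) for the difference between age effects, against 91, from 34 (T cell mean) to 1218 (array weights) at day 15, against 764, from 174 (pancreas mean) to 596 (intensity trend) at day 30, against 395, and from 116 (T cell mean) to 1548 (array weights) for the averaged genotype effect, against 1064. The causes of these changes were not tested.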
